A study of Mus musculus with 6 samples.

Results

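Cell cycle and DNA replication genes were analyzed in small intestine crypt organoids treated with low-density lipoprotein (LDL), a cholesterol-carrying particle of plasma, or with PBS. The set held 43 genes, named by symbol and matched to the identifiers of the deposited table through the GENCODE annotation, among 55416 genes in all. By the step of the cycle they serve, 9 were assigned to the G1/S transition, 15 to DNA replication, 14 to mitosis and 5 to the inhibitors of cyclin-dependent kinases. Crypts of WT C57BL/6 mice were grown into organoids and kept for 5 days with 50 μg/ml LDL or with the PBS vehicle (0 μg/ml LDL), and no other allele or agent was given for either group. Each of 3 mice gave 1 LDL-treated and 1 PBS-treated library, so the mouse was kept as a term of the fit (a replicate block), and values without it are given where they change a call. The identifier of mouse 3 starts with letters that differ from those of mice 1 and 2, although its genotype is given as WT.

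Levels are given as normalized counts, the reads on a gene after division by the size factor of the library. Depth was 22061545 to 31073360 reads on genes. Of the 6 libraries, 2 stood apart in the share of reads on 18S ribosomal RNA (Rn18s-rs5), which was 7.62% in the LDL-treated library of mouse 1 and 3.02% in the PBS-treated library of mouse 2, against 0.0826% to 0.225% in the other 4 libraries. The LDL-treated libraries of mice 1 and 3 also held reads on more genes, 35781 and 32751, against 29285 to 30018 in the other 4. The part of these differences in the results was not tested, but calls were repeated without each mouse. All 7 epithelial markers had reads in every library, with a summed normalized count of 86028 to 89699 with PBS and 96795 to 129069 with LDL. Markers of stroma summed to 44.8 to 85.7 with PBS and 30.9 to 89 with LDL, those of leukocytes to 132 to 197 and 149 to 226, and those of endothelium to 33.6 to 60.2 and 30.9 to 73.2.

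The intestinal crypt is a fast-renewing tissue in which stem cells and transit-amplifying cells divide and their daughters stop cycling as they differentiate. D-type cyclins with Cdk4 or Cdk6, and then E-type cyclins with Cdk2, phosphorylate the retinoblastoma protein and release E2F factors, which drive genes of DNA synthesis. Origins are licensed in G1 when Cdc6 and Cdt1 load the MCM helicase, and the cell later divides under cyclin B with Cdk1, Plk1 and the Aurora kinases. The Cip/Kip inhibitors (Cdkn1a, Cdkn1b and Cdkn1c, which encode p21, p27 and p57) and the INK4 inhibitors (Cdkn2a and Cdkn2b, which encode p16 and p15) hold cyclin-dependent kinases back. The libraries were made from whole organoids, so more cells in a phase and more RNA per cell cannot be told apart.

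With LDL treatment, 4 of 9 G1/S genes, 3 of 15 replication genes and 3 of 4 tested inhibitors passed the test, and 0 of 14 mitotic genes did. In the comparison of LDL- with PBS-treated organoids (limma with the mouse as a block, two-sided, Benjamini-Hochberg adjusted over all 18459 genes tested), 9 of 42 tested members rose at an adjusted p under 0.05, 1 fell and 32 did not pass. Over all genes tested, 8.27% rose and 7.45% fell. The risers were Ccnd1, Ccnd2, Ccne1 and Cdk6 among G1/S genes, Mcm3, Cdc6 and Rrm2 among replication genes, and Cdkn1a and Cdkn2b among inhibitors, while the member that fell was Cdkn1b. Changes were modest: with a change of more than 1.5-fold asked for besides, 3 members rose (Ccnd1, Cdkn1a and Cdkn2b) and 0 fell, against 5.68% and 3.46% of all genes. In 13 tested members the lowest LDL value lay above the highest PBS value, and in 1 member the highest LDL value lay below the lowest PBS value, against 11.9% and 12.3% of all genes.

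**Figure D1:**
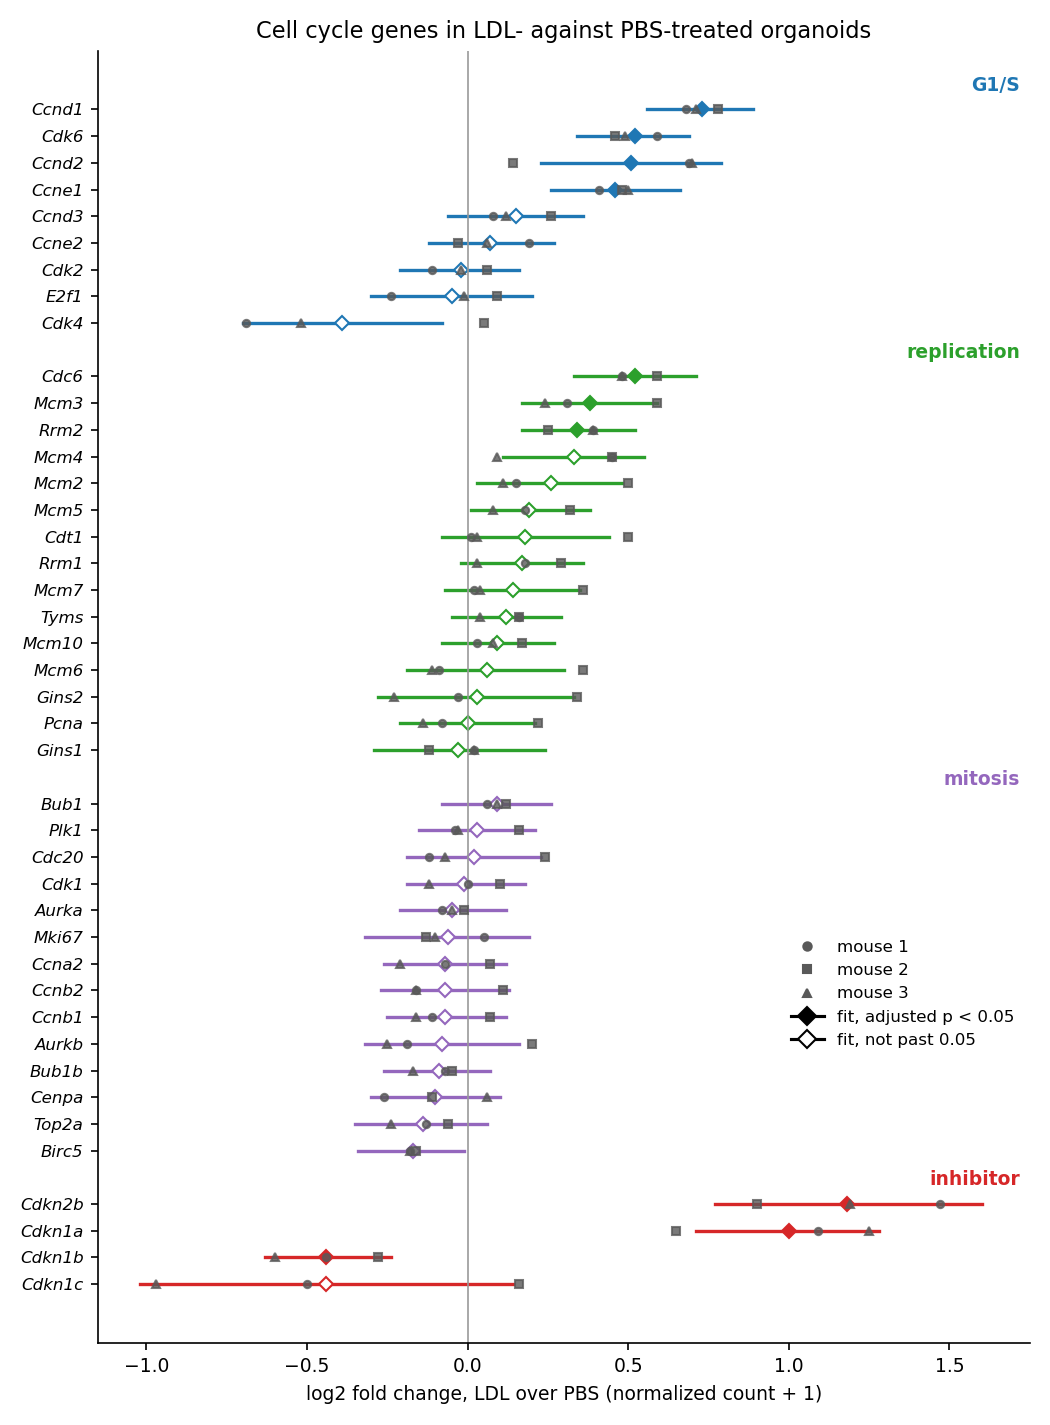
Log2 fold change of LDL over PBS (normalized count + 1) of the 42 tested members, by role. Diamonds are the fitted values, bars their 95% intervals, gray symbols the difference within each mouse (n = 3), and filled diamonds an adjusted p under 0.05. Filled diamonds are found among G1/S genes, replication genes and inhibitors, and all 14 mitotic genes have open diamonds between -0.17 and 0.09.

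The calls changed with the pairing by mouse and with the mice included. Without the replicate block, 1 member rose (Cdkn2b, adjusted p = 0.0322 by limma) and 0 fell, against 0.932% and 0.412% of all genes. Without mouse 1, 2 or 3, the members that rose numbered 6, 10 and 1, and those that fell 1, 3 and 0. Over all genes, 906, 2616 and 265 then rose and 570, 3062 and 77 fell. Ccnd1 was the riser that remained without mouse 3 (adjusted p = 0.0455 by limma).

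Of the 9 G1/S members, Ccnd1, Ccnd2, Cdk6 and Ccne1 rose, 0 fell and 5 did not pass, and their median log2 fold change was 0.15 (0.19, 0.14 and 0.12 in mice 1, 2 and 3) against -0.02 for all genes tested. Ccnd1 (cyclin D1, ENSMUSG00000070348, GRCm39 chromosome 7, 144483668 to 144493662, minus strand), which starts the passage through G1 in response to growth signals, held 2180, 1588 and 2105 normalized counts in PBS-treated organoids of mice 1, 2 and 3 and 3502, 2731 and 3449 in their LDL-treated organoids. The groups did not overlap, and each mouse rose by a similar step. The fitted rise of Ccnd1 was 1.65-fold (log2 0.73 ± 0.07, SE, n = 3 mice; limma adjusted p = 0.000915, 0.0656 without the block). The 3′ end of Ccnd1 shares 2315 exon bases with LTO1 on the opposite strand, a gene at normalized counts of 246 to 341 whose log2 difference was -0.01. Other members also share exon bases with genes on the opposite strand, among them Rrm2 (1437 with Gm59512) and Gins2 (2758 with Gse1). The strand setting of the counting is not given in the sources used here.

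Ccnd2 (cyclin D2, chromosome 6, 127102125 to 127129156) had the highest level of the D-type cyclins per kb of exon. It held 8128, 7120 and 6297 normalized counts with PBS and 13119, 7838 and 10250 with LDL. All mice were higher with LDL, but mouse 2 by little (log2 0.69, 0.14 and 0.70 in mice 1, 2 and 3), and the groups overlapped. The fitted log2 change of Ccnd2 was 0.51 ± 0.12 (limma adjusted p = 0.0284, 0.193 without the block), and the call was lost without mouse 1 (0.117) and without mouse 3 (0.3). Ccnd3 (cyclin D3) held 492, 492 and 575 with PBS and 520, 590 and 625 with LDL, a log2 difference of 0.15 that did not pass (limma adjusted p = 0.302). Per kb of exon, the mean normalized count went from 763 to 1106 for Ccnd2, from 409 to 675 for Ccnd1 and from 56.2 to 62.6 for Ccnd3, so the order of these cyclins was the same with PBS and LDL.

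Of the kinases that D-type cyclins bind, Cdk6 rose and Cdk4 did not pass. Cdk6 (chromosome 5, 3391485 to 3581008) held 4969, 3720 and 4452 normalized counts with PBS and 7467, 5134 and 6273 with LDL, with no overlap between the groups. Its rise was 1.43-fold (log2 0.52 ± 0.07; limma adjusted p = 0.00444, 0.141 without the block). Cdk4, its close relative, held 5402, 5707 and 6245 with PBS and 3346, 5896 and 4368 with LDL, lower in mice 1 and 3 and slightly higher in mouse 2. The log2 difference of Cdk4 was -0.39 ± 0.13 (limma adjusted p = 0.0946) and passed the threshold with DESeq2 (0.0473). It also passed without mouse 2, at a log2 value of -0.60, and stood at -0.23 without mouse 1. The ratio of Cdk6 to Cdk4 normalized counts was 0.92, 0.652 and 0.713 with PBS and 2.23, 0.871 and 1.44 with LDL, higher with LDL in every mouse; the pair was chosen after its values were seen, and no test was run on the ratio. Per kb of exon, Cdk4 stayed above Cdk6 in the group means, at 1682 against 304 with PBS and 1319 against 436 with LDL.

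Among the genes of the next step, E-type cyclins differed in their values. Ccne1 (cyclin E1, chromosome 7, 37797404 to 37808264), a partner of Cdk2 at the start of S phase, held 549, 481 and 523 normalized counts with PBS and 728, 669 and 739 with LDL. The LDL values lay above all PBS values, and the rise was 1.38-fold (log2 0.46 ± 0.08; limma adjusted p = 0.0107, 0.0734 without the block). Ccne2 (cyclin E2) held 796, 1020 and 925 with PBS and 910, 996 and 967 with LDL (log2 0.07, adjusted p = 0.611 by limma). Cdk2 itself held 1262, 1239 and 1242 with PBS and 1167, 1295 and 1223 with LDL. Its log2 difference was -0.02, with a 95% interval of -0.21 to 0.16. E2f1, a transcription factor of S-phase genes, was at 410, 319 and 378 with PBS and 348, 340 and 375 with LDL (log2 -0.05, 95% interval -0.30 to 0.20), so neither gene's groups separated.

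**Figure D2:**
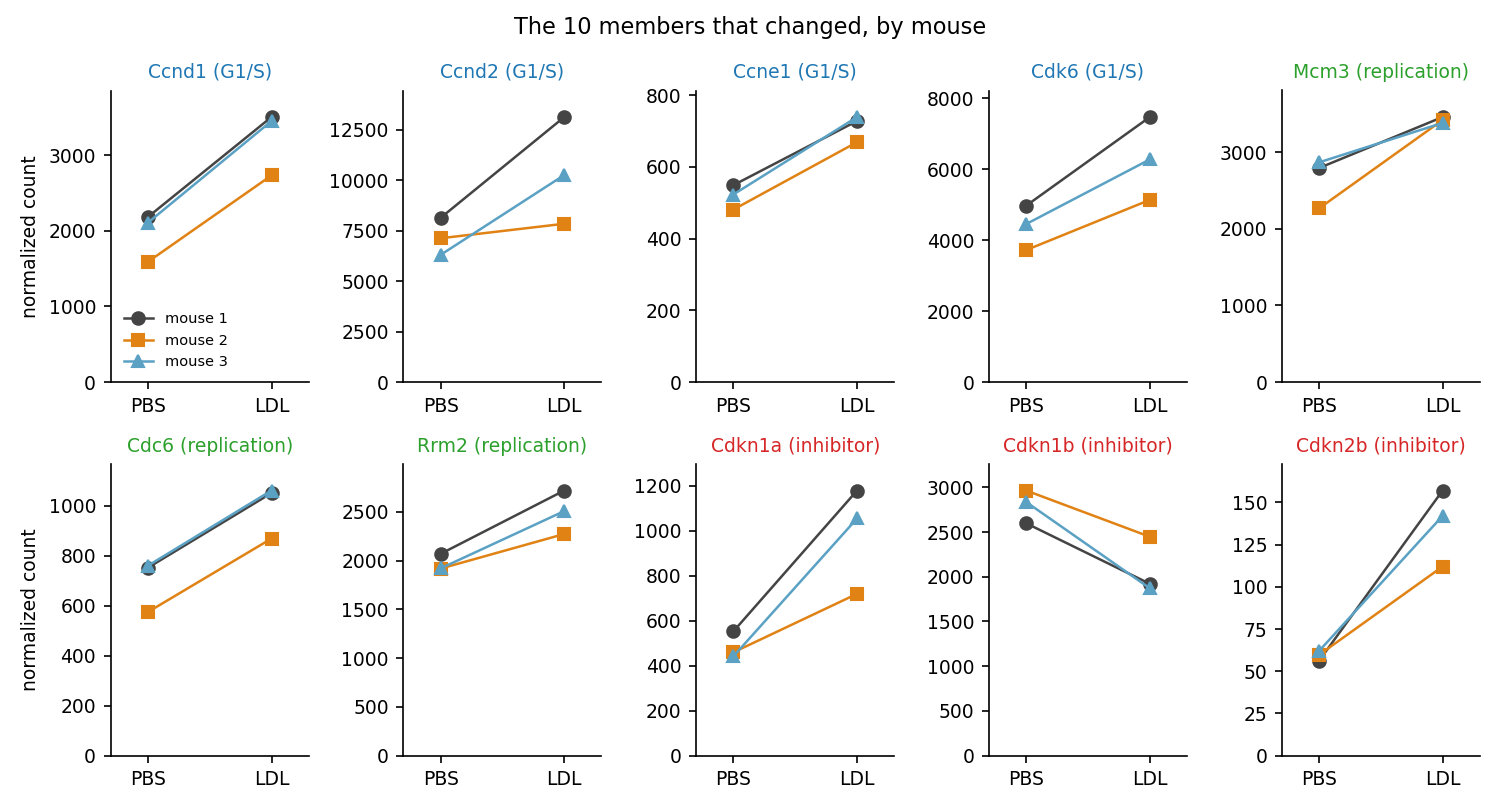
Normalized counts of the 10 members that changed, PBS and LDL, with 1 line per mouse (n = 3) and axes from 0. Lines rise in every mouse for the 9 risers and fall in every mouse for Cdkn1b. By the log2 difference, which is not the scale drawn, mouse 2 has the smallest rise in 5 of the 9.

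Replication genes were higher with LDL in most members, but few passed. Of the 15 members, 3 rose, 0 fell and 12 did not pass, and 13 had a log2 fold change above 0. Above 0 were also 8789 of all 18459 genes tested and 30 of 50 other replication genes. The median of the 15 members was 0.17, with 0.15, 0.34 and 0.04 in mice 1, 2 and 3, so the mice differed in how far the group was shifted. Cdc6 (chromosome 11, 98798507 to 98814766), the ATPase that loads the MCM helicase onto origins, held 751, 574 and 759 normalized counts with PBS and 1050, 868 and 1060 with LDL. The groups of Cdc6 did not overlap, and the rise was 1.43-fold (log2 0.52 ± 0.08; limma adjusted p = 0.00571, 0.112 without the block). Cdt1, which acts with Cdc6 in loading, held 1201, 732 and 1226 with PBS and 1211, 1036 and 1249 with LDL. The difference of Cdt1 lay in mouse 2 (log2 0.01, 0.50 and 0.03 by mouse) and did not pass (limma adjusted p = 0.327).

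The 6 subunits of the MCM helicase, Mcm2 to Mcm7, form a ring around DNA, and all had fitted values above 0. Mcm3 (chromosome 1, 20870791 to 20890536) held 2792, 2265 and 2866 normalized counts with PBS and 3458, 3419 and 3381 with LDL. Its LDL values lay close together and above all PBS values, with a rise of 1.3-fold (log2 0.38 ± 0.09; limma adjusted p = 0.0272, 0.118 without the block; 0.0547 without mouse 1 and 0.167 without mouse 3). Mcm4 held 3022, 2683 and 3136 with PBS and 4133, 3676 and 3337 with LDL, a log2 difference of 0.33 ± 0.09 that fell just short (limma adjusted p = 0.0505) and passed when only genes with a mean of at least 50 were tested (0.0492). Mcm2 held 3234, 2851 and 3357 with PBS and 3599, 4040 and 3617 with LDL, again without overlap (log2 0.26, limma adjusted p = 0.115; log2 0.13 without mouse 2). Mcm5, Mcm7 and Mcm6 had log2 differences of 0.19, 0.14 and 0.06. Without mouse 2, that of Mcm7 was 0.03 and that of Mcm6 was -0.10. Whether the subunits differed from each other was not tested. Mcm10, a separate protein that helps to start the helicase, was at 1933, 1669 and 1787 with PBS and 1972, 1879 and 1889 with LDL (log2 0.09).

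Of the enzymes that supply deoxynucleotides, the regulated subunit of ribonucleotide reductase rose. Rrm2 (chromosome 12, 24757811 to 24764145) held 2070, 1919 and 1921 normalized counts with PBS and 2720, 2274 and 2509 with LDL. No LDL value of Rrm2 was as low as a PBS value, and the rise was 1.27-fold (log2 0.34 ± 0.07; limma adjusted p = 0.0208, 0.116 without the block; 0.106 without mouse 1 and 0.268 without mouse 3). Rrm1, the large subunit, held 4659, 4598 and 4848 with PBS and 5263, 5636 and 4962 with LDL, also without overlap, at a log2 difference of 0.17 (limma adjusted p = 0.216) that was 0.10 without mouse 2. Tyms, which makes thymidylate, had a log2 difference of 0.12 (limma adjusted p = 0.337). Pcna, the sliding clamp of DNA polymerases and a common proliferation marker, was at 4401, 4309 and 4445 with PBS and 4151, 5015 and 4043 with LDL. Its log2 difference was -0.00 (95% interval -0.21 to 0.21), lower in mice 1 and 3 and higher in mouse 2. Gins1 and Gins2, subunits of the GINS complex of the replicative helicase, had log2 differences of -0.03 and 0.03. The intervals of the replication genes reached from -0.29 to 0.71, so a fall of more than 1.22-fold lay outside all of them.

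Promoter windows of RefSeq (GRCm38.p6, 250 bases before to 50 bases after the start) were found for 34 members and searched on both strands for E2F-like letters (TTCCCGC or TTGGCGC), the cell cycle homology region (CHR, TTTGAA) and CCAAT. The letters TTGGCGC can overlap a reversed CCAAT, which happened in 2 of 38 member windows. Of 12 replication genes with a window, 7 held E2F-like letters, 1 a CHR and 9 a CCAAT, and of all 32851 windows 6.81% held E2F-like letters, 17.9% a CHR and 37.4% a CCAAT. Gins1, Gins2, Mcm4, Ccnd1, Ccnd2, Ccne2, Ccna2, Aurkb and Cdkn1c were not matched. The windows of Cdc6 (chr11:98907901-98908200, plus strand) and Mcm3 (chr1:20820263-20820562, minus strand), which rose, and of Mcm6 (chr1:128359656-128359955, minus strand), which did not pass, are shown because E2F-like letters, in capitals, occur in all of them.
Cdc6: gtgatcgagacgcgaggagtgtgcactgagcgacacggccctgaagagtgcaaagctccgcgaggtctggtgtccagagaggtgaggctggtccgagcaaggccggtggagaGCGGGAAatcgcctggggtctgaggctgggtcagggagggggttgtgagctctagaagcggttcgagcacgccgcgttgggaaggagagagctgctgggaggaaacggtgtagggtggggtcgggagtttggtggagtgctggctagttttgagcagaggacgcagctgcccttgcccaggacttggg
Mcm3: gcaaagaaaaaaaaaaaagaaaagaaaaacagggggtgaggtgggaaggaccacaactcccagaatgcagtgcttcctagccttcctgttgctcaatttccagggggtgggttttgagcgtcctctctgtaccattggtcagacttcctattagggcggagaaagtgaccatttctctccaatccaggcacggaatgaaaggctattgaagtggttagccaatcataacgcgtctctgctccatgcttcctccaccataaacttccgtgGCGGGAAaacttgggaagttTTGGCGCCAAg
Mcm6: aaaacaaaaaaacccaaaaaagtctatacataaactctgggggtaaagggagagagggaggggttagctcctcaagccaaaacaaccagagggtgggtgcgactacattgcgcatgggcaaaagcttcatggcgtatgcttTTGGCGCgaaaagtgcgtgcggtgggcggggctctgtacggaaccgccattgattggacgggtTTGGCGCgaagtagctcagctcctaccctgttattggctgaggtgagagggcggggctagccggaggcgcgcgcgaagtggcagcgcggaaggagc
Of the 7 risers with a window, 2 (Cdc6 and Mcm3) held E2F-like letters, and the windows of Ccne1, Cdk6, Rrm2, Cdkn1a and Cdkn2b did not hold these letters.

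**Figure D3:**
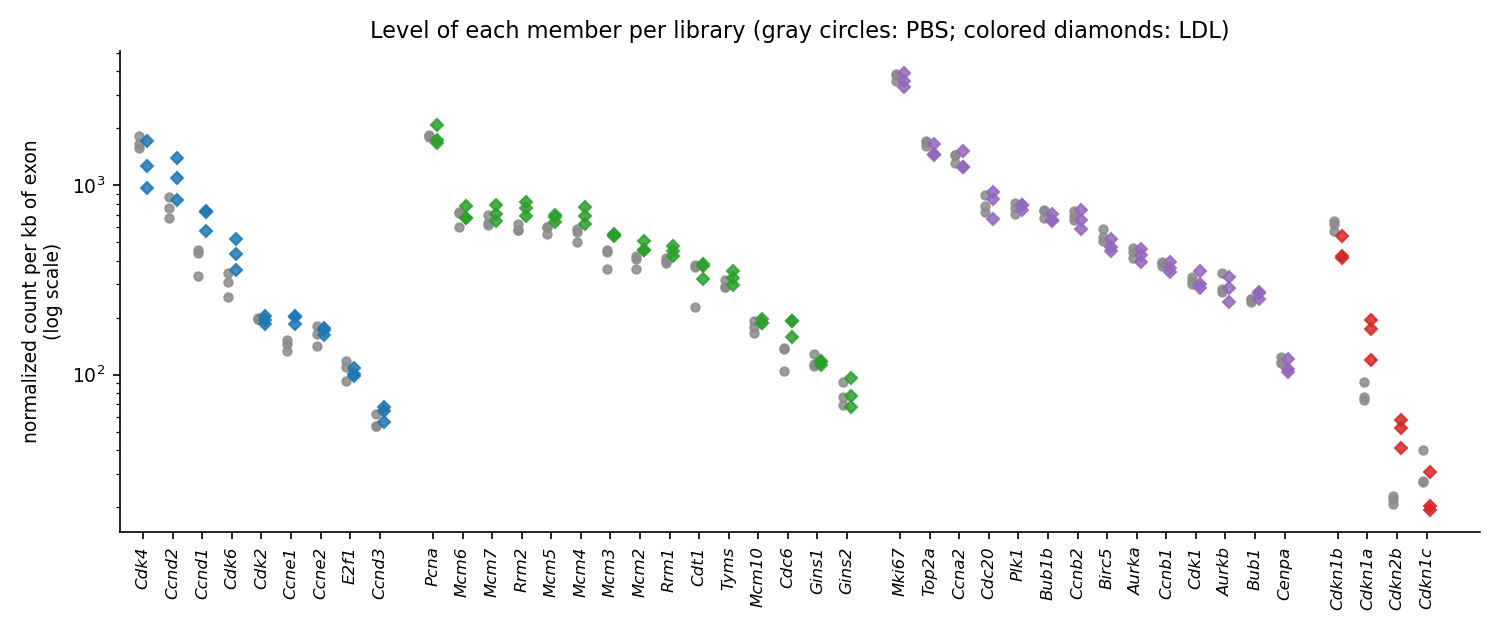
Normalized count per kb of exon (log scale) of each member with reads in both groups, with gray circles for PBS-treated and colored diamonds for LDL-treated libraries (n = 3 each) and genes ordered by level within each role. Mki67 has the highest level, and the diamonds stand clear of the circles for Ccnd1, Cdk6, Ccne1, Cdc6, Mcm3, Cdkn1a and Cdkn2b among others.

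Mitotic genes did not pass the test in either direction. Of the 14 members, 0 rose and 0 fell with limma, DESeq2 or edgeR. By limma, 1 of them had an unadjusted p under 0.05 (Birc5), against 5554 of all 18459 genes tested. The limma adjusted p of the 14 members ran from 0.15 to 0.975. Log2 differences lay between -0.17 and 0.09, 3 above and 11 below 0, against 8789 above and 9670 below over all genes tested. The 95% intervals of the members lay between -0.35 and 0.26, so falls of more than 1.27-fold and rises of more than 1.2-fold lay outside every interval. The median of the 14 members was -0.07, with -0.10, 0.07 and -0.14 in mice 1, 2 and 3. Mki67, which encodes the proliferation antigen Ki-67, had the highest level per kb of exon of all members and held 39141, 40010 and 36513 normalized counts with PBS and 40502, 36448 and 33968 with LDL. It was higher in mouse 1 and lower in mice 2 and 3 (log2 -0.06, 95% interval -0.32 to 0.19). Top2a, the topoisomerase that untangles sister chromatids, held 14701, 15694 and 15517 with PBS and 13418, 15012 and 13176 with LDL, lower in every mouse while the groups overlapped (log2 -0.14, limma adjusted p = 0.321).

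The cyclins and the kinase of mitotic entry stayed within narrow bounds. Ccnb1 (cyclin B1) held 1691, 1609 and 1674 normalized counts with PBS and 1567, 1685 and 1495 with LDL (log2 -0.07, 95% interval -0.25 to 0.12). Ccnb2 (cyclin B2) and Ccna2 (cyclin A2, which acts from S phase on) also had a log2 difference of -0.07 each. Cdk1, the kinase they activate, was at 1758, 1921 and 1815 with PBS and 1755, 2063 and 1674 with LDL. Its log2 difference was -0.01 (95% interval -0.19 to 0.18), and the groups overlapped. The ratio of Ccne1 to Ccnb1 normalized counts was 0.325, 0.299 and 0.312 with PBS and 0.465, 0.397 and 0.494 with LDL, and that of Cdc6 to Ccnb1 was 0.444, 0.357 and 0.453 with PBS and 0.67, 0.515 and 0.709 with LDL. Both ratios were higher in every LDL-treated library than in every PBS-treated one; the pairs were chosen after their values were seen, and no test was run on them.

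The mitotic kinases and the spindle and centromere genes gave similar values. Aurka and Aurkb, the Aurora kinases of spindle poles and centromeres, had log2 differences of -0.05 and -0.08, and Plk1, the Polo-like kinase of mitosis, one of 0.03. Birc5 (survivin), a partner of Aurkb, held 2314, 2667 and 2412 normalized counts with PBS and 2049, 2380 and 2136 with LDL, lower in all 3 mice (log2 -0.17, 95% interval -0.34 to -0.01, limma adjusted p = 0.15). Bub1, a kinase of the spindle checkpoint, held 1101, 1137 and 1146 with PBS and 1146, 1238 and 1221 with LDL, higher in all 3 mice by a log2 difference of 0.09 (limma adjusted p = 0.475). Its relative Bub1b, Cenpa (the histone variant of centromeres) and Cdc20 (the activator of the anaphase-promoting complex) had log2 differences of -0.09, -0.10 and 0.02.

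The promoter windows of mitotic genes were searched for the same letters. Of 12 mitotic genes with a window, 9 held a CHR, 3 E2F-like letters and 11 a CCAAT. Windows of Cdk1 (chr10:69352863-69353162, minus strand) and Ccnb2 (chr9:70421505-70421804, minus strand) are shown as genes with 2 CHR matches each, with CHR and E2F-like letters in capitals.
Cdk1: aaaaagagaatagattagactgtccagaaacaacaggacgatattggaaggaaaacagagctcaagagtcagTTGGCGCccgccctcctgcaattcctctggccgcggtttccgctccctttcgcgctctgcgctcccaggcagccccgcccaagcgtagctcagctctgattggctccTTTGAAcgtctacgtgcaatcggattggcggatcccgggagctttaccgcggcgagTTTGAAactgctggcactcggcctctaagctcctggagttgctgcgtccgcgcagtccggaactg
Ccnb2: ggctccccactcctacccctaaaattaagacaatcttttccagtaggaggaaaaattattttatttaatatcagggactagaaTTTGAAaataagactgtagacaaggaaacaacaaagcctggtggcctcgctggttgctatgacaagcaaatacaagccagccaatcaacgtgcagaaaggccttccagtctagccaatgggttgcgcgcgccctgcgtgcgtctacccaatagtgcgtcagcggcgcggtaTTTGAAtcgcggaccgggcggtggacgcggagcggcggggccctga
No binding was measured here, and the letters describe the windows only.

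The inhibitors of cyclin-dependent kinases moved in opposite directions. Of 5 members, 4 could be tested, of which 2 rose, 1 fell and 1 did not pass. Cdkn2b (p15, chromosome 4, 89223204 to 89229276), an INK4 inhibitor of Cdk4 and Cdk6, held 56.1, 59.6 and 61.9 normalized counts with PBS and 157, 112 and 142 with LDL. The groups of Cdkn2b did not overlap, and its rise was 2.27-fold (log2 1.18 ± 0.18, SE, n = 3 mice; limma adjusted p = 0.00498, 0.0322 without the block and 0.0939 without mouse 3). Cdkn1a (p21, chromosome 17, 29309936 to 29319701), which halts Cdk2 and is a classical target of p53, held 552, 459 and 441 with PBS and 1178, 719 and 1054 with LDL. Every LDL value of Cdkn1a exceeded every PBS value, and mouse 2 again had the smallest step (log2 1.09, 0.65 and 1.25 by mouse). The rise of Cdkn1a was 2-fold (log2 1.0 ± 0.12; limma adjusted p = 0.00235, 0.0541 without the block and 0.0618 without mouse 3).

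Cdkn1b (p27, chromosome 6, 134897364 to 134902476), which is high in many resting cells, held 2598, 2964 and 2836 normalized counts with PBS and 1921, 2447 and 1871 with LDL. All LDL values lay below all PBS values, and Cdkn1b fell by 0.44 on the log2 scale (SE 0.09; limma adjusted p = 0.0132, 0.116 without the block and 0.227 without mouse 3). Cdkn1c (p57) had the same fitted log2 difference of -0.44 but a wider error of 0.25, from 59.2, 58.4 and 86.3 normalized counts with PBS and 41.5, 65.5 and 43.5 with LDL. It was higher in mouse 2 and lower in mice 1 and 3 and did not pass (limma adjusted p = 0.286). Without mouse 2 its log2 difference was -0.74 and passed (limma adjusted p = 0.0277), and without mouse 3 it was -0.17. Cdkn2a (p16 and p19ARF) had 0 reads in all PBS-treated libraries and 1, 1 and 3 reads in the LDL-treated libraries of mice 1, 2 and 3, at or below the 3 reads that a count of 0 allows, so no fold is given. Per kb of exon, Cdkn1b remained the most abundant inhibitor at 615 with PBS and 457 with LDL, above Cdkn1a at 80.1 and 163 and Cdkn2b at 21.8 and 50.4. The ratio of Cdkn1a to Cdkn1b normalized counts was 0.213, 0.155 and 0.156 with PBS and 0.613, 0.294 and 0.563 with LDL, a pair chosen after its values were seen and not tested.

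Other genes of the same pathways were counted from lists written without members of the set. Of 27 other G1/S control genes, 2 rose and 3 fell (7.41% and 11.1%), against 8.27% and 7.45% of all genes tested. Mybl2 (B-Myb), a transcription factor of S and G2 phase genes, rose by a log2 value of 0.58 (limma adjusted p = 0.00326) from 1402, 1166 and 1284 normalized counts to 1938, 1781 and 2049. E2f2, an activating E2F factor, fell by 0.53 on the log2 scale (limma adjusted p = 0.00948), Rb1, the retinoblastoma gene, fell by 0.43 (0.012), and Tfdp2, a dimer partner of E2F factors, fell by 0.40 (0.0199). Cdc25a, a phosphatase that activates Cdk2 and was named after its values were seen, rose by 0.26 (limma adjusted p = 0.0479). The list had a median log2 difference of -0.03, against 0.15 for the G1/S members.

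Of 50 other replication genes, 0 rose with limma and 1 fell, against 8.27% and 7.45% of all genes tested. The gene that fell was Prim1, the catalytic subunit of primase, by 0.30 on the log2 scale (limma adjusted p = 0.0485). At an unadjusted limma p under 0.05, 4 of these 50 genes were found, against 5554 of all 18459 genes tested. DESeq2 and edgeR with the block called 1 and 2 rises in the list. The median of the 50 genes, 0.02, stood beside 0.17 for the replication members. Of 60 other mitotic genes, 3 rose and 3 fell (5% each), against the same 8.27% and 7.45% of all genes. The risers were Kif23, a kinesin of the central spindle (log2 0.64, limma adjusted p = 0.00614), Ect2, an activator of RhoA (0.62, 0.00283), and Cep55, a midbody protein (0.40, 0.017). Ect2 held 2218, 2252 and 2407 normalized counts with PBS and 3725, 3498 and 3366 with LDL, with no overlap. Without the block, Ect2 and Mybl2 were the only genes of the 3 pathway lists past the threshold (limma adjusted p = 0.0201 and 0.0437). Nusap1, a spindle protein, fell by 0.42 on the log2 scale (limma adjusted p = 0.00954), as did, named after their values were seen, Cdc25b, a phosphatase of mitotic entry, by 0.36 and Sgo1, a protector of sister chromatid cohesion, by 0.31. The median of the 60 genes was -0.07, the same as that of the mitotic members.

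**Figure D4:**
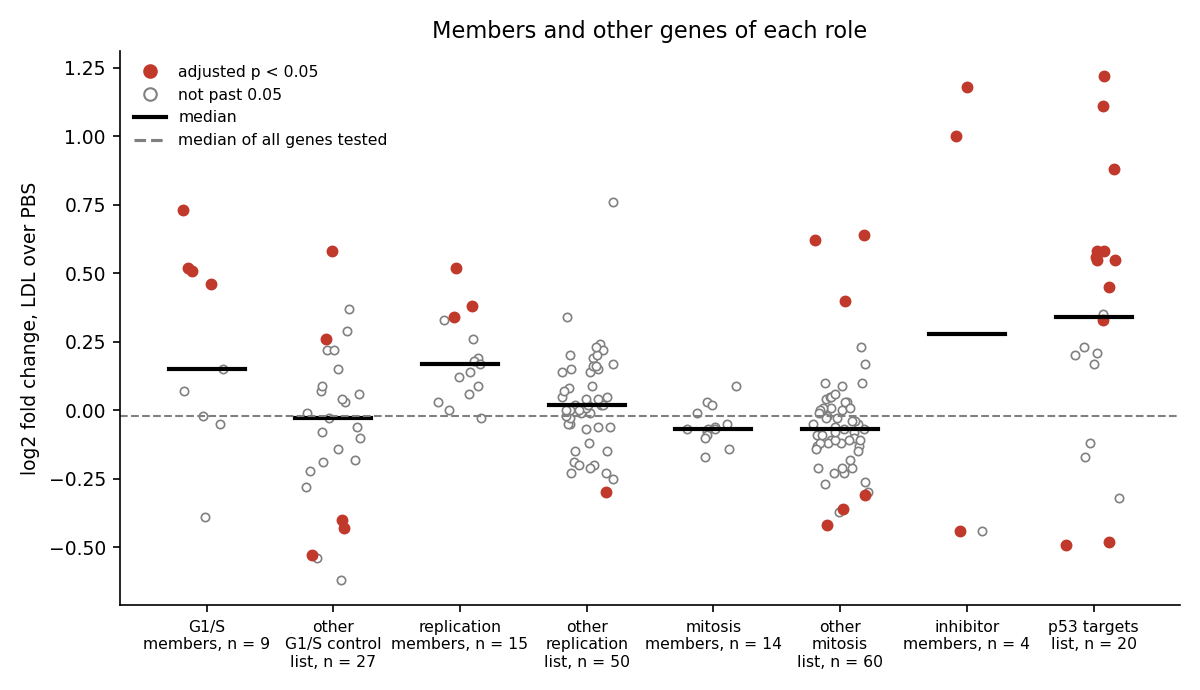
Log2 fold change of LDL over PBS for the members of each role and for the other genes of the same pathways (1 point per gene, horizontal jitter only). Filled points have an adjusted p under 0.05, black lines are medians and the dashed line is the median of all genes tested (-0.02); the p53 target list has the highest median (0.34), and mitotic members lie close to the dashed line.

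Because Cdkn1a is a p53 target, 20 further p53 targets were examined. Of these, 10 rose and 2 fell, against 8.27% and 7.45% of all genes tested, and their median log2 difference was 0.34. Plk2, a stress-induced kinase, held 241, 186 and 245 normalized counts with PBS and 832, 246 and 687 with LDL, and rose by a log2 value of 1.22 ± 0.24 (limma adjusted p = 0.0127, 0.161 without the block). Most of that rise was in mice 1 and 3. Phlda3, an inhibitor of Akt signaling, rose by 0.88 (limma adjusted p = 0.00654), and Zmat3, an RNA-binding protein, and Trp53inp1, a nuclear partner of p53, rose by 0.58 each (0.00584 and 0.0115). Sesn2, a stress sensor of amino acid supply, and Btg2, an antiproliferative gene, were named after their values were seen and fell by 0.49 and 0.48 (limma adjusted p = 0.0199 and 0.00899). Without mouse 1, 2 or 3 the list's rises numbered 4, 13 and 0, and 0 without the block. The transcript of p53 itself, Trp53, was at 1880, 1786 and 2035 with PBS and 2052, 1876 and 1860 with LDL (log2 0.02, 95% interval -0.17 to 0.21).

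Markers of epithelial cell types also moved with treatment, beside 8.27% of all genes tested that rose and 7.45% that fell. Of 8 stem cell markers, Ascl2 and Sox9 rose and Olfm4 and Smoc2 fell (named after their values were seen; limma adjusted p = 0.104, 0.343, 0.156 and 0.118 without the block), and the summed normalized count of the list was 22786 to 39484 with PBS and 19534 to 26207 with LDL. Goblet cell markers summed to 44449 to 49968 with PBS and 26857 to 32188 with LDL, with 3 of 7 falling and 1 rising, and Paneth cell markers to 13868 to 22221 and 12211 to 13720, with 2 of 8 falling and 1 rising. Enterocyte markers summed to 51795 to 95305 and 59161 to 100993, with 4 of 11 falling and 3 rising, enteroendocrine markers to 10354 to 15952 and 7829 to 12517, with 2 of 8 falling, and tuft cell markers to 244 to 347 and 186 to 522, with 1 of 5 tested falling. No marker in these epithelial lists lacked reads altogether. The part of cell type composition in the changes of Ccnd1, Cdk6, Cdkn1a, Cdkn1b and the other members was not tested.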

How the data were processed

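RNA-Seq libraries were made by the authors from organoids of 3 mice, each treated with LDL or PBS. According to the study's methods and the submitters' processing notes, reads were demultiplexed with bcl2fastq 2.20, aligned to GRCm39 with STAR, counted per gene with featureCounts and analyzed with DESeq2. Strand setting, annotation release and pairing term are not given in the sources used here. The deposited signal values are normalized counts, and 100% of them were whole reads over 1 size factor per library (tolerance 0.01), so reads were recovered. Identifiers were matched to GENCODE M39 (54749 found, 667 not).

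Normalized counts plus 1 were taken to log2 where the mean reached 10 or more, and compared with limma 3.58.1 in R 4.3.3 (eBayes with a trend, two-sided) with the mouse as a block. The replicate numbers pair the libraries because both libraries of a number share an animal identifier. Deviations from the group means correlated across genes with r = 0.484, 0.421 and 0.462 within mice and -0.368 to -0.0809 between mice. Deviations sum to 0 over the 3 mice of a group, so negative values between mice follow in part from positive ones within mice. A gene rose or fell at a Benjamini-Hochberg adjusted p under 0.05. The p-values, SEs and intervals of limma combine the spread of a gene between these 3 pairs with a variance trend over all genes. They therefore do not measure the spread of that gene's 3 pairs alone. Alternatives changed the pseudocount (0.5 or 5), the filter (none, or a mean of 50 or more), the scaling (upper-quartile or quantile normalization), the block (none), the mice (each left out in turn), the call (more than 1.5-fold besides) and the tool, with DESeq2 1.42.0 and edgeR 4.0.16 and the block on recovered reads. The limma fits with and without the block, and DESeq2 and edgeR with the block, were run on simulated data. The planted changes there were larger than those of the members, and the other alternatives were not simulated.

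The members and lists were chosen with earlier results of these data known, and the lists were written from general knowledge. The rule named all members and up to 4 genes of each other list, the latter by the largest absolute log2 fold change among those past the test whose mean was 100 or more; 1 further gene of this rule is not reported here, and genes of these lists named beyond it are marked as named after their values were seen. Python 3.11.15 with matplotlib 3.10.9, numpy 2.4.6 and pandas 2.3.3 served for the remaining steps.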

Additional observations from a re-analysis of the deposited data

How the results depend on the processing

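Depth limited Cdkn2a, which had at most 3 reads in a library. Both pseudocounts, both filters, both scalings and the count models with the block gave 9 or 10 rises among members (Mcm4 was the addition), and 0 mitotic members were called under any setting. The median of all genes lay between -0.037 and 0.006 under the scalings and count models, and at 0.104 without the filter on the mean.

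Without the replicate block, 172 genes rose and 76 fell over all genes, and among members 1 rose and 0 fell (G1/S 0 rose, replication 0 rose, inhibitors 1 rose and 0 fell). In the other lists without the block, G1/S control had 1 rise and 0 falls, replication 0 falls, mitosis 1 rise and 0 falls, and p53 targets 0 rises and 0 falls. Leaving out a mouse removes both of its libraries and left 4. Over all genes, 265 to 2616 then rose and 77 to 3062 fell. Among members, 1 to 10 rose and 0 to 3 fell, with 1 to 4 G1/S rises, 0 to 1 G1/S falls, 0 to 4 replication rises, 0 to 2 inhibitor rises and 0 to 2 inhibitor falls. In the other lists, G1/S control gave 0 to 4 rises and 0 to 6 falls, replication 0 to 2 rises and 0 to 7 falls, mitosis 0 to 4 rises and 0 to 10 falls, and p53 targets 0 to 13 rises and 0 to 3 falls. The median log2 fold change ranged from 0.13 to 0.19 for G1/S members, 0.10 to 0.23 for replication, -0.11 to -0.02 for mitosis and 0.27 to 0.35 for inhibitors.

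With more than 1.5-fold asked for, 639 genes fell over all genes, and among members 3 rose and 0 fell (G1/S 1 rise, replication 0 rises, inhibitors 0 falls); the other lists then gave 0 rises and 0 falls in G1/S control, 0 falls in replication, 0 falls in mitosis, and 3 rises and 0 falls in p53 targets. DESeq2 with the block called 2 members as lower, 1 of them in G1/S (Cdk4), and gave 1 rise in G1/S control and 1 rise and 0 falls in replication. In the replication list, edgeR with the block gave 2 rises, a pseudocount of 0.5, upper-quartile scaling and quantile normalization 1 rise each, and no filter 1 rise and 0 falls; no filter gave 1 rise in G1/S control.

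Signs turned in members near 0, none of them called. Pcna was 0.02 under upper-quartile scaling, DESeq2 and edgeR and 0.00 under quantile normalization, Cdk1 was 0.01 under upper-quartile scaling and DESeq2 and 0.02 under edgeR, and Mki67 was 0.05 under quantile normalization. With each mouse left out in turn, log2 fold changes ranged from -0.11 to 0.07 for Pcna, -0.06 to 0.05 for Cdk1, -0.07 to 0.02 for Cdk2, -0.13 to 0.04 for E2f1, -0.10 to 0.14 for Mcm6, -0.05 to 0.02 for Gins1, -0.13 to 0.15 for Gins2, -0.22 to 0.01 for Aurkb, -0.04 to 0.06 for Plk1 and -0.09 to 0.09 for Cdc20. The cause of these changes was not tested.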
